A study of Homo sapiens with 6 samples.

Results

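The 3 NR4A nuclear receptor genes and 7 other textbook targets of the transcription factor CREB were followed in HEK293 cells that made either PKI1-24 or its control inPKI1-24, each fused to GFP. The genes were NR4A1, NR4A2, NR4A3, CITED2, IRS2, GEM, RGS2, ATF3, STC1 and PPARGC1A. They were taken by symbol from the deposited expression table, where each matched 1 row, so they are 10 of 30960 genes. Of the 10, 9 passed the filter on low values (at least 1 CPM, reads scaled to a common library size, in at least 3 libraries) and entered a test across 14275 genes. PPARGC1A did not pass and is given by its values alone.

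HEK293 is an established human embryonic kidney cell line. Cells were transfected with 158 ng of plasmid per square centimetre by lipofection in medium with 10% serum, and RNA was taken 48 h later. There were 3 libraries with GFP-PKI1-24 (PKI A, B and C) and 3 with GFP-inPKI1-24 (inPKI A, B and C), so every library carries a plasmid for a GFP fusion. The labels name no agent that raises cAMP, and the share of cells that took up plasmid is not given in the sources used here. No label ties a library to a culture of its own, so p-values measure only the spread between these libraries, which may be technical.

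Protein kinase A (PKA) is freed by cAMP and phosphorylates CREB, which sits on a short promoter sequence called the cAMP response element (CRE). Phosphorylated CREB recruits the coactivators CREBBP and EP300, with help from the CRTC proteins, and its target genes are transcribed. PKI proteins occupy the substrate site of the PKA catalytic subunit and block it. Many CREB targets are also switched on by serum, stress or mitogen-activated kinases, and many are induced and shut off again within hours.

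Upstream windows from RefSeq (GRCh38.p14) show where CRE letters lie near these genes. Of the 10 genes, 7 matched the table, with 12 windows between them, and NR4A2, GEM and STC1 had no entry. The 250 bases before each start site were searched on both strands for TGACGTCA, the full CRE, and for its core TGACG, which every full CRE holds. The full CRE was in 0 of the 12 windows, and 1.65% of all 35116 windows of that length held it. The core was in 3 windows, those of NR4A3, RGS2 and PPARGC1A, and 21.2% of all windows held it. NR4A3 had 4 cores, at 109, 91, 83 and 25 bases before the start, and 0.236% of all windows held 4 or more. In these counts a full CRE adds a core on each strand. The start used for NR4A3 lies inside the gene's span given further on, and so does the core 25 bases before it. The RGS2 core lay 181 bases before the start and that of PPARGC1A 119 bases. The PPARGC1A window belongs to a distal start that lies upstream of the gene's span given further on, and its other window held none. These 3 windows are shown 5′ to 3′ because they hold the CRE letters, with the core on either strand in capitals: chr9:99821635-99821884 on the plus strand for NR4A3, chr1:192808789-192809038 on the plus strand for RGS2, and chr4:24472906-24473155 on the minus strand for PPARGC1A. A match is a description of the letters, and it does not show that CREB binds there. Start sites of these genes without a window, and bases further from a start, were not searched. The absence of a match therefore does not show that a gene lacks a CRE.
NR4A3: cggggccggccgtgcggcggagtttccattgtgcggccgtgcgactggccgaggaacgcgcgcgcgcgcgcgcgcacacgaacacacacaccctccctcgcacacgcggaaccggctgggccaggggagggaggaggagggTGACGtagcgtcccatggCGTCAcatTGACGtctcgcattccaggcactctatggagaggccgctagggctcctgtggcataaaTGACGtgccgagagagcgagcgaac
RGS2: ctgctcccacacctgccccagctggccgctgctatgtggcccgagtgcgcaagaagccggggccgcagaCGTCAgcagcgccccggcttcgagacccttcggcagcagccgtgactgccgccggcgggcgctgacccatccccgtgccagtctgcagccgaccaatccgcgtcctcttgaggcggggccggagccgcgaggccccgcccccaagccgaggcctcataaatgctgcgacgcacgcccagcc
PPARGC1A: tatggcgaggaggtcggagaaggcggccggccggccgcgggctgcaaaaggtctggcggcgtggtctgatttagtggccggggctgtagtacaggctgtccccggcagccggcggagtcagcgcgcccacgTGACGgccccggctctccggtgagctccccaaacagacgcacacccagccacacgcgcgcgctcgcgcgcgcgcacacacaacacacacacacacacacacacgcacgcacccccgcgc

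The libraries held 17244715 to 23589438 reads, recovered from the deposited values. PKIA, which encodes a PKI protein, was 9.68 ± 1.46 CPM in inPKI against 43.9 ± 1.96 CPM under PKI (SD, n = 3 each). Counts per gene do not separate plasmid from cellular reads, so this value checks only that the libraries separate by label. Genes known to be high in HEK293 cells were present (IRS4 at 449 to 500.4 CPM and LIN28B at 115 to 128 CPM), while the leukocyte gene CD3E and the fibroblast gene DCN were at 0 in all 6. KRT5 and KRT14, keratin genes of keratinocytes, stood out in inPKI C, at 26.5 and 12.2 CPM against 9.84 to 13.2 and 4.60 to 5.29 CPM in the other libraries. PKI C had the fewest reads and the lowest sum of CPM (754299, against up to 785007).

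In the comparison of PKI with inPKI, 0 of the 9 tested genes passed an adjusted p of 0.05, by limma on log2(CPM + 1) with Benjamini-Hochberg adjustment over all genes. Over all 14275 genes 0.126% passed, 14 higher in PKI (0.0981%) and 4 lower (0.028%). By edgeR and by DESeq2 on the recovered reads the count was also 0 of 9, where 0.0771% and 1.39% of all genes passed. Before adjustment 1 of the 9, IRS2, had a limma p below 0.05, against 13.7% of all genes (7.53% higher in PKI and 6.16% lower). The same gene alone had an unadjusted p below 0.05 by edgeR and by DESeq2, against 15.6% and 11.9% of all genes. Of the 9 genes 3 had a log2 change above 0 and 6 below, with a median of -0.035, and over all genes tested the median was -0.0074. In bulk RNA a lower level per cell cannot be told apart from fewer cells that express the gene.

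The NR4A genes encode orphan nuclear receptors that bind DNA as monomers, dimers or partners of RXR and are known as rapid early response genes. NR4A1 (ENSG00000123358.19, chr12:52022832-52059507 in GRCh38) measured 20.9, 20.0 and 23.1 CPM in inPKI A, B and C and 23.5, 23.5 and 19.3 CPM in PKI A, B and C. The groups overlapped, with PKI C the lowest of the 6 libraries and the other PKI libraries the highest. The log2 change, PKI minus inPKI, was 0.045 ± 0.085 (SE, limma, adjusted p = 0.845), and its 95% interval ran from -0.14 to 0.23. Without PKI C it was 0.14 and without PKI B it was -0.00097, so its sign rests on single libraries.

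NR4A2 (ENSG00000153234.13, chr2:156324432-156342348), a receptor known for its part in dopamine neurons, measured 3.71, 3.61 and 4.14 CPM in inPKI against 3.69, 3.59 and 3.02 CPM under PKI. These values overlapped, with the highest in inPKI C and the lowest in PKI C. Its log2 change was -0.12 ± 0.12 (SE, limma adjusted p = 0.672, 95% interval -0.37 to 0.13). NR4A3 (ENSG00000119508.17, chr9:99821855-99866891) measured 2.46, 2.19 and 3.35 CPM in inPKI against 2.22, 1.73 and 2.93 CPM under PKI, which is 52 to 81 reads per library. Library C was the highest of its group in both conditions, and the spread within each group exceeded the difference between them. The log2 change of NR4A3 was -0.16 ± 0.16 (SE, limma adjusted p = 0.688, 95% interval -0.50 to 0.19). RXRA and RXRB, which encode dimer partners of NR4A1 and NR4A2, had log2 changes of 0.062 and -0.042, and their relative RXRG -0.27 (adjusted p = 0.752, 0.777 and 0.443), so 0 of the 3 RXR genes passed.

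**Figure D1:**
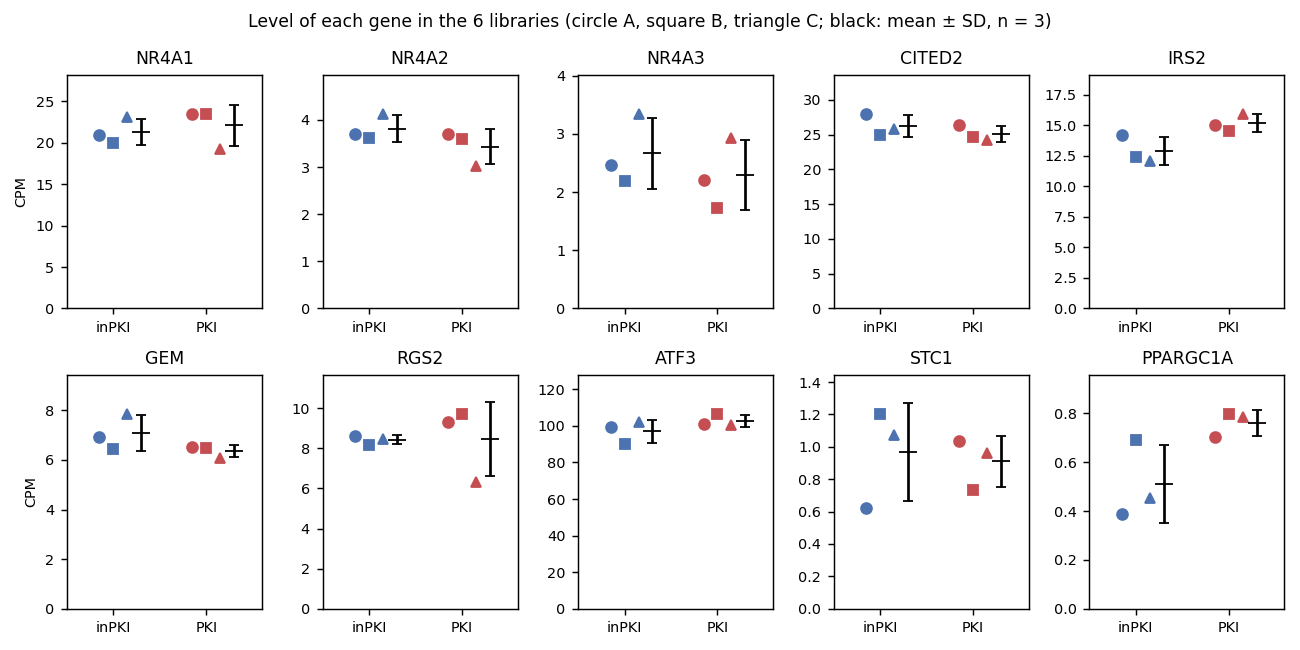
CPM of each gene (vertical axes, starting at 0) in the inPKI and PKI libraries, with black bars for the mean ± SD (n = 3). The groups overlap for 8 genes, while all 3 PKI libraries lie above all 3 inPKI libraries for IRS2 and PPARGC1A. Over all genes tested, which leave out PPARGC1A, the groups were apart in 19.7% (10.9% with PKI higher).

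Next came the genes for transcriptional regulators. ATF3, a stress-induced transcription factor of the basic leucine zipper class (ENSG00000162772.16, chr1:212565334-212620777), was the most abundant. It measured 99.2, 90.1 and 102 CPM in inPKI against 101, 107 and 101 CPM under PKI, on 2301 to 3203 reads per library. The lowest value was that of inPKI B, and inPKI C lay above PKI A and PKI C. Its log2 change was 0.083 ± 0.058 (SE, limma adjusted p = 0.545), with a 95% interval of -0.041 to 0.21, the narrowest of the 9 genes. CITED2, which competes for the coactivators CREBBP and EP300 and restrains the hypoxia factors (ENSG00000164442.9, chr6:139371807-139374620), measured 28.0, 24.9 and 25.8 CPM in inPKI. In PKI it measured 26.4, 24.6 and 24.3 CPM, and the groups overlapped. The log2 change of CITED2 was -0.062 ± 0.068 (SE, limma adjusted p = 0.715, 95% interval -0.21 to 0.083).

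PPARGC1A encodes a coactivator that drives mitochondrial and gluconeogenic genes and is a classic CREB target in fasting liver (ENSG00000109819.8, chr4:23755041-23904089). It was near the limit of detection, at 0.390, 0.693 and 0.455 CPM in inPKI (10, 19 and 11 reads) and 0.702, 0.799 and 0.787 CPM in PKI (19, 24 and 18 reads). Every PKI value exceeded every inPKI value, but PKI A exceeded inPKI B by less than the worth of 1 read (0.0365 CPM in inPKI B). The exact permutation test of its CPM gave p = 0.1 (2-sided), the smallest that 3 against 3 allows. The ratio of summed reads, scaled for depth, was 1.47 with an exact 95% interval of 0.972 to 2.25 for counting error only. Without the filter on low values limma gave an adjusted p of 0.574. Its relatives PPARGC1B (44.4 ± 1.44 CPM in inPKI against 49.2 ± 3.30 CPM under PKI) and PPRC1 (176 ± 6.72 and 175 ± 8.91 CPM, SD, n = 3 each) were far more abundant, and both missed the threshold (limma adjusted p = 0.327 and 0.965).

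Among the signalling genes, IRS2 had the smallest p of the 9. It encodes an adaptor that carries the signal of the insulin and IGF receptors to PI3 kinase (ENSG00000185950.8, chr13:109752698-109786568). IRS2 measured 14.2, 12.4 and 12.1 CPM in inPKI against 14.99, 14.5 and 16.0 CPM under PKI. Every PKI value exceeded every inPKI value, the nearest pair being PKI B and inPKI A, and the groups were apart in this way in 19.7% of all genes tested (10.9% with PKI higher and 8.88% with PKI lower). The log2 change was 0.22 ± 0.083 (SE) with a 95% interval of 0.042 to 0.40 and an unadjusted p of 0.0189, and it missed the threshold (limma adjusted p = 0.278, and 0.209 to 0.624 over the alternatives). It was above 0 in 18 of 18 alternatives, between 0.17 and 0.29.

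The other adaptors of this family, both from the list of relatives and chosen here after their values were seen, also had groups that did not overlap. IRS1 measured 11.9 ± 0.0855 CPM in inPKI against 14.0 ± 0.772 CPM under PKI, a log2 change of 0.22 ± 0.078 (SE, limma adjusted p = 0.2498). With the length trend removed the change was 0.16 for IRS1 and 0.18 for IRS2 (limma adjusted p = 0.441 and 0.435). IRS4, the form that HEK293 cells express most, measured 451 ± 3.41 CPM in inPKI against 475 ± 21.9 CPM under PKI (SD, n = 3 each), a log2 change of 0.074 ± 0.060 (adjusted p = 0.602). None of the 3 IRS genes passed the threshold.

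RGS2, which speeds GTP hydrolysis by Gq alpha subunits (ENSG00000116741.7, chr1:192809039-192812283), measured 8.62, 8.17 and 8.48 CPM in inPKI. In PKI A and B it measured 9.31 and 9.72 CPM, and in PKI C 6.34 CPM, on 145 reads. The inPKI libraries lay close together, with PKI A and PKI B above all of them and PKI C below all of them. The log2 change was -0.015 ± 0.12 (SE, limma adjusted p = 0.973, 95% interval -0.28 to 0.25). Without PKI C it was 0.16 (adjusted p = 0.553), and the direction also turned in 5 other alternatives. GEM, a small GTPase of the RGK family that dampens calcium channels (ENSG00000164949.7, chr8:94249253-94262350), measured 6.94, 6.46 and 7.86 CPM in inPKI against 6.54, 6.49 and 6.08 CPM under PKI. InPKI A and inPKI C lay above all PKI libraries, and inPKI B lay below PKI A and PKI B. Its log2 change was -0.13 ± 0.10 (SE, limma adjusted p = 0.582, 95% interval -0.35 to 0.084). The RGK relatives RRAD, REM1 and REM2 did not pass the filter.

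STC1 encodes stanniocalcin, a secreted glycoprotein hormone with roles in calcium and phosphate handling (ENSG00000159167.11, chr8:23841915-23854807). It measured 0.624, 1.204 and 1.08 CPM in inPKI against 1.03, 0.732 and 0.962 CPM under PKI, on 16 to 33 reads per library. The inPKI libraries held both the lowest and the highest value. The log2 change was -0.035 ± 0.17 (SE, limma adjusted p = 0.948, 95% interval -0.39 to 0.32), and the ratio of summed reads was 0.927 with an exact 95% interval of 0.661 to 1.298 for counting error only. Its relative STC2 was far more abundant, at 99.8 ± 2.07 CPM in inPKI against 97.1 ± 4.10 CPM under PKI (SD, n = 3 each, limma adjusted p = 0.762).

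Across the 9 genes the 95% intervals lay between -0.50 (NR4A3) and 0.40 (IRS2), so none reached a log2 change of 1 in either direction. The 1 added to each CPM shrinks the change of the low genes, and the ratio of summed reads covers them without it. It was 0.910 for NR4A2 (exact 95% interval 0.769 to 1.08), 0.847 for NR4A3 (0.689 to 1.04) and 0.905 for GEM (0.801 to 1.02), for counting error only. Each of these 3 intervals held both 1 and ratios below 0.9.

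The small differences moved, in both directions, when single libraries were left out. InPKI C held the highest of the 6 values for 3 genes (NR4A2, NR4A3 and GEM), and PKI C held the lowest for 5 genes (NR4A1, NR4A2, CITED2, GEM and RGS2). Without inPKI C the log2 change went from -0.12 to -0.074 for NR4A2, from -0.16 to -0.028 for NR4A3 and from -0.13 to -0.063 for GEM. Without PKI C it was -0.052 for NR4A2, -0.10 for GEM, -0.039 for CITED2 and -0.29 for NR4A3. The CITED2 change was -0.014 without inPKI A, and that of ATF3 went from 0.083 to 0.030 without inPKI B. Leaving out the library that lies furthest along a change shrinks that change in any data. Other libraries left out enlarged the same changes. NR4A2 was -0.16 without PKI A and ATF3 was 0.12 without inPKI C. Without inPKI B, GEM was -0.19 and CITED2 was -0.097. With the length trend removed the changes were -0.0028 for CITED2, -0.075 for GEM, 0.019 for NR4A1 and -0.011 for STC1. InPKI C is the library in which KRT5 and KRT14 stood out and PKI C the one with the fewest reads, and their part in these differences was not tested. Taking the median over the 9 genes of each library's distance from the inPKI mean gave -0.022, -0.071 and 0.089 (log2) in inPKI A, B and C and 0.060, -0.067 and -0.11 in PKI A, B and C. These ranges overlapped.

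**Figure D2:**
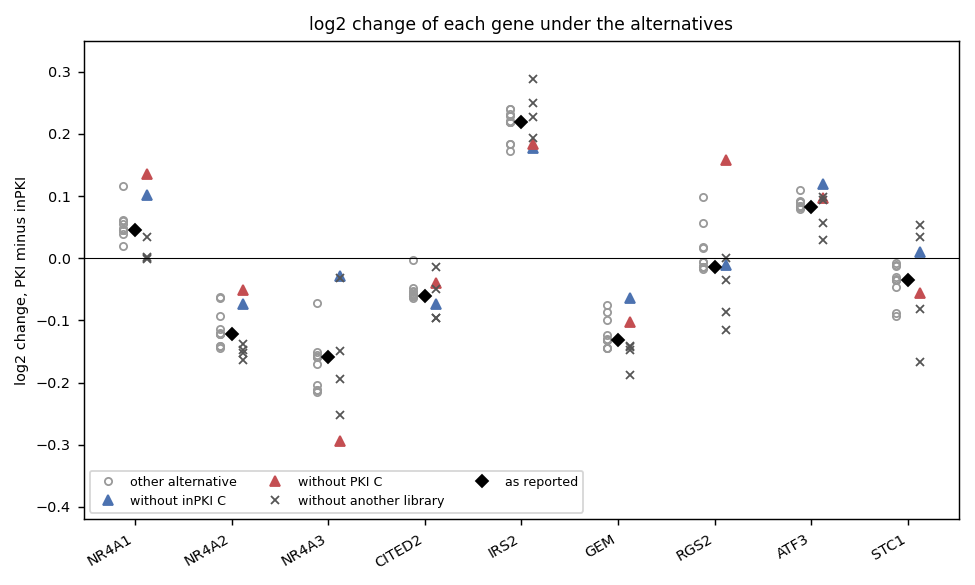
Log2 change of each tested gene (vertical axis, PKI minus inPKI) as reported (diamond) and under the alternatives. Points for NR4A1, RGS2 and STC1 fall on both sides of 0, and those for IRS2 stay between 0.17 and 0.29.

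Levels were compared between genes per kilobase of merged annotated exons, as the mean over the 6 libraries. ATF3 was the highest at 24.7 ± 1.35 CPM per kilobase (SD, n = 6), followed by CITED2 at 10.1 ± 0.551. RGS2 (4.03 ± 0.560), NR4A1 (2.98 ± 0.258) and GEM (2.54 ± 0.234) followed, and their ranges over libraries overlapped from each to the next, so their order is not settled by these libraries. IRS2 (1.72 ± 0.187) and NR4A2 (0.914 ± 0.0903) came next, each apart from its neighbours. NR4A3 (0.393 ± 0.0917) overlapped with STC1 (0.226 ± 0.0528), and PPARGC1A was the lowest at 0.0587 ± 0.0159. Within the NR4A family the order of levels was therefore NR4A1, NR4A2 and NR4A3. The isoform in use is not known: by the median length of each gene's coding transcripts NR4A1 ranked the second (17.3 CPM per kilobase) and CITED2 the third (14.4), and IRS2 fell below NR4A2 (1.72 against 2.19).

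**Figure D3:**
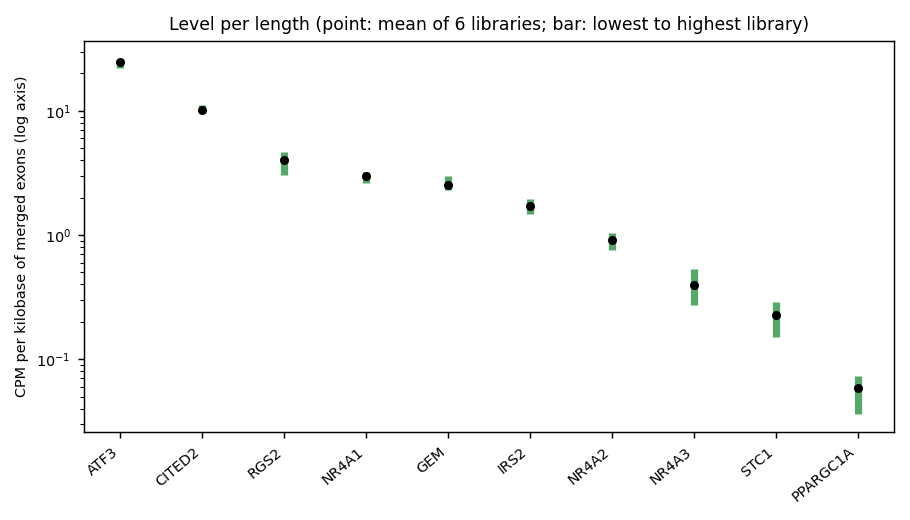
Level per kilobase of merged exons (log axis) for the 10 genes in descending order, with the mean of 6 libraries as a point and the lowest to highest library as a bar. ATF3 and CITED2 stand apart at the top (24.7 and 10.1 CPM per kilobase) and PPARGC1A at the bottom (0.0587).

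The other genes of the pathway were taken from lists chosen from textbook knowledge. Of 28 further CREB targets, 25 were in the table and 15 were tested. In limma 1 of the 15 rose (EGR1), 0 fell and 14 did not pass. EGR1, an immediate early zinc finger factor that is also driven by serum response factor, measured 16.5, 11.7 and 14.6 CPM in inPKI against 33.1, 24.96 and 27.1 CPM under PKI. Every PKI value exceeded every inPKI value, with a log2 change of 0.95 ± 0.11 (SE, limma adjusted p = 0.00198). The EGR1 call was lost with no filter on low values (limma adjusted p = 0.142) and with limma without a trend (0.160), and held in the other 16 alternatives. Of the 15 genes 13 had a log2 change above 0 and 2 below, with a median of 0.14. Over all 14275 genes tested 6771 were above 0 and 7504 below. Before adjustment 5 of the 15 had a limma p below 0.05, all higher in PKI, against 7.53% of all genes tested in that direction.

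The 4 besides EGR1, chosen after their values were seen, were DUSP1, PDE10A, IER2 and JUNB. The phosphatase gene DUSP1 measured 35.2, 30.9 and 35.3 CPM in inPKI against 42.2, 46.9 and 39.0 CPM under PKI, with no overlap (log2 change 0.33 ± 0.074, SE, limma adjusted p = 0.110). DUSP1 passed the threshold without PKI C (limma adjusted p = 0.0267), with sample weights (0.0123), with the length trend removed (0.0333) and by DESeq2 (0.00485), and between 0.00485 and 0.485 in all alternatives. The phosphodiesterase gene PDE10A showed a log2 difference of 0.35 ± 0.094 (SE, limma adjusted p = 0.157). With the length trend removed the PDE10A difference was 0.21 (limma adjusted p = 0.412). The early response genes IER2 and JUNB had log2 changes of 0.21 ± 0.074 and 0.16 ± 0.075 (SE, limma adjusted p = 0.235 and 0.365). All of these lists were chosen with results of these data known, so the counts are descriptions, and the lists were not tested against each other.

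**Figure D4:**
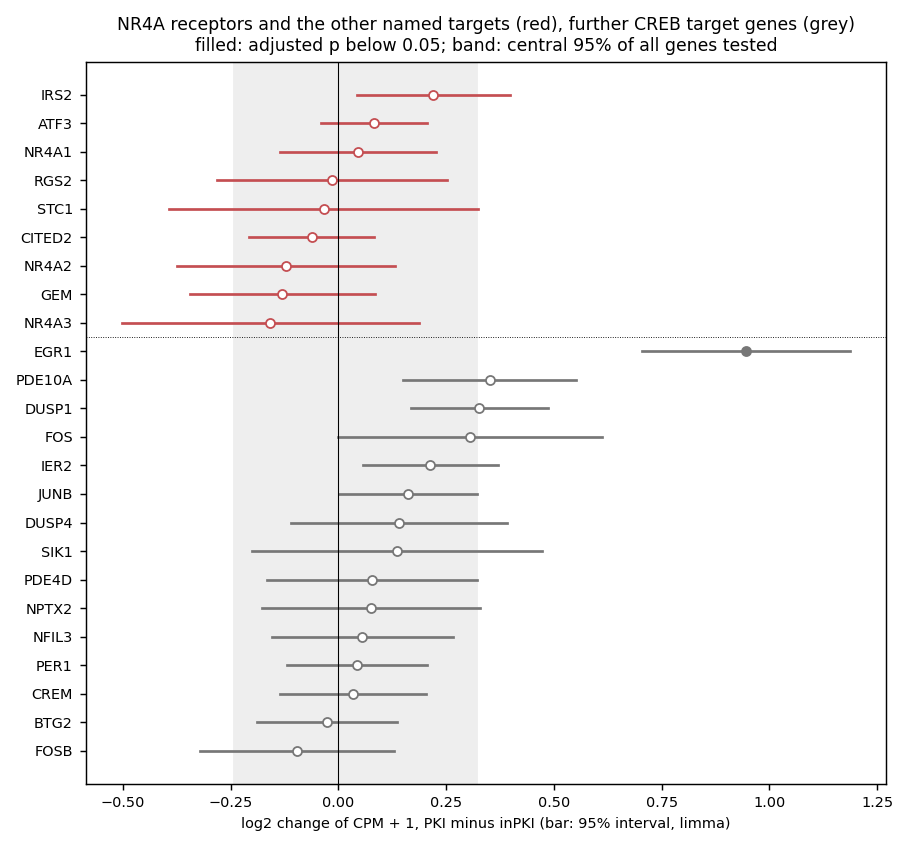
Log2 change (horizontal axis, PKI minus inPKI, of CPM + 1) with 95% intervals for the 9 tested genes in red and 15 further CREB targets in grey. The 9 estimates lie between -0.16 and 0.22, inside the band that holds the central 95% of all genes tested, and EGR1 alone is past the threshold, at 0.95.

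The CREB machinery itself was next. Of 13 genes for CREB family factors, coactivators, SIK kinases and PKA catalytic subunits, 0 passed the threshold in limma, edgeR or DESeq2, and 2 had an unadjusted limma p below 0.05, a share near the 13.7% of all genes tested. Of the 13 genes 11 had a log2 change above 0 and 2 below, with a median of 0.053. Over all genes tested 6771 were above 0 and 7504 below, with a median of -0.0074. CREM and SIK1 are also among the further CREB targets, so the lists share genes. The 3 smallest p belonged to EP300, CREBBP and CRTC1. The acetyltransferase genes EP300 and CREBBP had log2 changes of 0.19 ± 0.068 and 0.16 ± 0.060 (SE, limma adjusted p = 0.259 and 0.285). These are long transcripts, and with the length trend removed the changes were 0.10 for EP300 and 0.050 for CREBBP (limma adjusted p = 0.525 and 0.725). CRTC1, a coactivator that enters the nucleus when SIK kinases are inhibited, measured 16.3 ± 0.404 CPM in inPKI against 14.9 ± 0.583 CPM under PKI (SD, n = 3 each), without overlap (log2 change -0.13 ± 0.073, SE, limma adjusted p = 0.456). CREB1 measured 39.1 ± 2.07 and 40.9 ± 1.66 CPM (SD, n = 3 each, limma adjusted p = 0.667).

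Of 15 genes related by family to the 10, 12 were tested, 1 rose, 0 fell and 11 did not pass. Of the 12, 8 had a log2 change above 0 and 4 below. Before adjustment 4 had a limma p below 0.05, all higher in PKI, against 7.53% of all genes tested in that direction. The gene that passed the threshold was FOSL1, an AP-1 subunit of the same leucine zipper class as ATF3. It measured 2.18, 2.22 and 2.28 CPM in inPKI against 5.95, 4.26 and 4.55 CPM under PKI, with no overlap (log2 change 0.86 ± 0.13, SE, limma adjusted p = 0.0127). The call was lost without inPKI A (adjusted p = 0.0575) or inPKI B (0.0701), with no filter on low values (0.333) and with limma without a trend (0.0925), with values between 0.000259 and 0.333 in all. JDP2, the closest relative of ATF3, was chosen after its values were seen: it measured 5.06 ± 0.344 CPM in inPKI against 6.33 ± 1.203 CPM under PKI (SD, n = 3 each, limma adjusted p = 0.362).

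The authors' deposited table of their own comparison gave 0 of the 10 genes an adjusted p below 0.05. Over all genes it gave 14 below 0.05 among 21299 with an adjusted p. Turned to PKI over inPKI, its log2 fold changes ran from -0.21 ± 0.36 (SE) for NR4A3 to 0.58 ± 0.62 for PPARGC1A, and in the authors' deposited table GEM has no p. The mean normalized count in the authors' deposited table was above the mean of recovered reads in the 6 libraries for 3 of the 10 genes (1254 against 367 for IRS2) and below it for 7 (1466 against 2621 for ATF3). For all 2069 genes that are at 0 in the 6 libraries, the authors' deposited table gives a mean above 0, so that table rests on more libraries than those analysed here.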

How the data were processed

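Expression was measured by mRNA sequencing in 3 PKI and 3 inPKI libraries, grouped by sample title. Per the submitters' processing notes the tools were STAR 2.5.2b, cutadapt 1.14, DESeq2 1.20.0 and RSEM 1.3.0, and the build hg19, with no stated role. The authors deposited CPM scaled by TMM, as the file name gives. Per the file headers, the authors' deposited comparison gives a mean signal, a log2 fold change with its SE, a Wald score, a signed fold change (a score), a p-value and an adjusted p-value. In all 30960 rows its log2 and signed fold changes point opposite ways, so the former was turned to PKI over inPKI.

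Dividing each column by its smallest CPM above 0 gave whole numbers for 100% of values (tolerance 0.01 reads), used as reads, with totals of 17244715 to 23589438. They may be rounded RSEM estimates, and PCR duplicates cannot be told apart, so intervals and floors cover counting error only.

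The main test was limma 3.58.1 in R 4.3.3 on log2(CPM + 1), 2-sided with a variance trend, and p-values were adjusted by Benjamini-Hochberg over the 14275 genes with at least 1 CPM in 3 libraries. Every adjusted p comes from it unless another tool is named. edgeR 4.0.16 (quasi-likelihood) and DESeq2 1.42.0 (without independent filtering) were run on recovered reads, and all 3 were tested on simulated data. Other alternatives were pseudocounts of 0.25 and 5, no filter, a 5 CPM filter, median-ratio and equal-sum rescaling, a replicate block, no trend, sample weights, removal of the length trend, and each library left out in turn.

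All 10 genes were named, with every called gene of each list, or otherwise its 3 smallest p. The genes and lists were chosen with earlier results of these data known. Positions and lengths come from GENCODE 29 (GRCh38), not from the authors' alignment; 30794 identifiers matched and 166 did not. Figures were drawn with matplotlib 3.10.9.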

Additional observations from a re-analysis of the deposited data

How the results depend on the processing

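Under all 18 alternatives 0 of the tested genes among the 10 passed the threshold, and their median log2 change stayed between -0.087 and 0.015. The direction of RGS2 turned with sample weights (0.099), edgeR (0.017), DESeq2 (0.016) and the length trend removed (0.057), and ranged from -0.12 to 0.16 with 1 library left out. That of NR4A1 ranged from -0.00097 to 0.14 and that of STC1 from -0.17 to 0.053 with 1 library left out. The causes were not tested. ATF3, CITED2, GEM and IRS2 kept their direction in 18 of 18 alternatives, and NR4A2 and NR4A3 in 17 of 17, since the 5 CPM filter leaves them out.

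Over all genes 18 passed. The count was 4 with no filter and 4 without a trend, 11 after rescaling columns to an equal sum (10 higher and 1 lower, against 14 and 4), 144 with sample weights, 11 by edgeR, 199 by DESeq2, 10 with the length trend removed, and 9 to 114 with 1 library left out. The further CREB targets gave 1 call, with 0 under no filter or no trend, 2 with sample weights, DESeq2 or the length trend removed, and 1 to 2 with 1 library left out. The relatives gave 1, with 0 under no filter, the 5 CPM filter (which leaves FOSL1 out) or no trend, and 0 to 1 with 1 library left out. What moved these counts was otherwise not tested.

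With a replicate block for the letters A, B and C, 124 genes passed over all and 0 of the 9 genes here. The labels give libraries of 1 letter nothing else in common. Their deviations from the group means correlated at 0.0171, 0.0138 and 0.0283, and each library correlated best with its own letter. Between libraries of different letters the correlations ran from -0.0224 to 0.0101, so all were near 0. The deviations within a group sum to 0, so these correlations are not independent of each other. Whether libraries of 1 letter share a culture or a batch is not known from these values. The depth limits PPARGC1A (10 to 24 reads per library) and STC1 (16 to 33) most.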

Other observations

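Of the 28 further CREB targets, 10 were in the table but under the filter. Most of these are neuroendocrine, metabolic or secreted products. PENK, which encodes the enkephalin precursor, and TH, the enzyme that starts catecholamine synthesis, had 0 reads in all 6 libraries, which allows up to 3 reads per library (0.0998 to 0.131 CPM). The gluconeogenic gene PCK1 measured 0.479 ± 0.0436 CPM in inPKI against 0.371 ± 0.210 CPM under PKI, and the neurotrophin gene BDNF 0.377 ± 0.0723 and 0.439 ± 0.156 CPM (SD, n = 3 each), with groups that overlapped.

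Genes were also sorted by the CRE letters in their RefSeq upstream windows, a description added after the values were seen. Of 10000 tested genes with a window, 354 held the full CRE TGACGTCA. Of these 2 passed the threshold in limma, both higher (MAFF and KIF1A), against 10 of all 10000 genes with a window (9 higher and 1 lower), and 11.6% had an unadjusted p below 0.05, against 13.4% of all genes with a window. Their median log2 change was -0.011, against -0.0081. The 56 tested genes with 4 or more cores (TGACG), the class that NR4A3 falls in, gave 0 calls, by limma, with a median of -0.038 and 10.7% under an unadjusted p of 0.05. A full CRE was counted here as a core on each strand, so this class can hold genes with fewer separate sites than NR4A3.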
